A study of Mus musculus with 23 samples.

Results

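The genes described here are 8 genes of endothelial cells (*Flt1*, *Kdr*, *Pecam1*, *Cdh5*, *Tek*, *Notch4*, *Esam* and *Eng*) together with the peptide gene *Apln* and its receptor gene *Aplnr*, which makes 10 genes of the 18512 symbols in the files. They were chosen by name, with earlier results of these data known. All 10 passed the filter on low counts, and all 10 are protein-coding. C57BL/6 mice of both sexes, 6 to 8 weeks old, received caerulein at 50 µg/kg, as 8 hourly intraperitoneal injections on each of 2 consecutive days, which injures the acinar cells, and the pancreas was then left to recover. RNA from a portion of the head of the pancreas, not from sorted cells, was sequenced in 8 non-injured baseline mice (BL, 4 females and 4 males), 8 mice at day 7 (d7, 4 females and 4 males) and 7 mice at day 14 (d14, 3 females and 4 males). The labels do not say whether the BL mice were injected with vehicle, and none of the groups carries a transgene. Each mouse gave 1 library and is 1 replicate.

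Endothelial cells line every vessel of the pancreas, and a small set of surface receptors and junction proteins marks them. *Flt1* and *Kdr* encode the VEGF receptors VEGFR1 and VEGFR2; the second carries most of the growth and permeability signal of VEGF-A, and the first binds VEGF-A strongly and in part acts as a decoy. *Tek* encodes Tie2, the receptor of the angiopoietins, which keeps vessels quiescent. *Eng* encodes endoglin, a co-receptor for BMP9 and TGF-β, and *Notch4* is a Notch receptor largely restricted to endothelium. *Pecam1* (CD31), *Cdh5* (VE-cadherin) and *Esam* encode adhesion proteins of the contacts between endothelial cells. *Apln* encodes apelin, a secreted peptide that sprouting endothelial cells make during vessel growth, and *Aplnr* encodes the G protein-coupled receptor that binds it.

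Promoter sequences are shown for the 4 genes whose call at d7 or d14 against BL is described below, namely *Flt1*, *Eng* and *Notch4* (lower at d7) and *Apln* (higher at d14). Each is the 250 bases before the RefSeq transcription start in GRCm38.p6, written 5′ to 3′ on the strand of the gene, with GGAA, the core of ETS family binding sites, in capitals on either strand (TTCC is the same core on the other strand). ETS factors such as ERG are known regulators of endothelial genes.
Flt1 (chr5:147726012-147726261, minus strand): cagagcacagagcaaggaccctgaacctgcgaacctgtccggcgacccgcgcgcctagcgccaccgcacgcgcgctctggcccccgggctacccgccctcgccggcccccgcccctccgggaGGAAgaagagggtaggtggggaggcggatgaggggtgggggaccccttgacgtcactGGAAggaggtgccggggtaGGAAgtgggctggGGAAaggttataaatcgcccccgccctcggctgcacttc
Eng (chr2:32646345-32646594, plus strand): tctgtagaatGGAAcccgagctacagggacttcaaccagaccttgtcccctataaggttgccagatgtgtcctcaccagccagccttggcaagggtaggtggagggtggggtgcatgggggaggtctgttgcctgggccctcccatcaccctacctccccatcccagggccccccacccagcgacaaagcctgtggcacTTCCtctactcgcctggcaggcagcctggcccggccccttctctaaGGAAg
Notch4 (chr17:34564045-34564294, plus strand): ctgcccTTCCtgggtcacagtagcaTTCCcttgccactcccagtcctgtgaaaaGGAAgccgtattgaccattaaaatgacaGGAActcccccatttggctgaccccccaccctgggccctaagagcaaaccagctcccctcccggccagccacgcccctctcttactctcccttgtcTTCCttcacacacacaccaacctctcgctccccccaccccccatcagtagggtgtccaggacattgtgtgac
Apln (chrX:48034854-48035103, minus strand): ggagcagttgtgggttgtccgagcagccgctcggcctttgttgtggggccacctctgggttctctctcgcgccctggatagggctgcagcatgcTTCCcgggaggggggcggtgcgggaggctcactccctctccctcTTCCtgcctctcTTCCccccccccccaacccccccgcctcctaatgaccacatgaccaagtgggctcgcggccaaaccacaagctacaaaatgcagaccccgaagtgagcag

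The ETS core occurred 4 times in the *Flt1* window, 3 times in *Eng*, 5 times in *Notch4* and 3 times in *Apln*, and also 4 times in *Kdr* and 2 times in *Tek*. These 4 letters are common: 93.4% of the 32851 promoters of the same length held at least 1 match, with a median of 3. The hypoxia response core (ACGTG or GCGTG, either strand) was present 2 times in *Kdr* and 1 time each in *Flt1* and *Notch4*, against 38.6% of all promoters, and was not in the windows of *Eng*, *Tek* and *Apln*. CATGTG, an E-box (CACATG on the other strand), was found 1 time in *Apln* and in 12.3% of all promoters, and GATAA was in none of the 6 windows and in 22.6% of all promoters. No promoter entry was matched for *Pecam1*, *Cdh5*, *Esam* and *Aplnr*.

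Total counts per mouse ranged from 7059890 to 9567446. The tissue label was met by its markers, since 10 acinar marker genes took 38.9% to 44.2% of the counts at BL, 31.7% to 36.6% at d7 and 35.2% to 39.6% at d14. The 10 genes described here together took a median of 0.00896% of the counts at BL, 0.00913% at d7 and 0.0112% at d14, so each rests on few reads. The acinar share differed between the groups, and some directions given below turned with the scaling of the libraries. Levels are normalized counts: each count was divided by its TMM-scaled library size, then brought back to the size of a mean library.

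Before any comparison, 4 libraries stood apart in transcripts of lymphocytes. The summed normalized count of 6 lymphocyte markers was 375 in a BL male (mouse 5), 649 in a d7 female (mouse 10), 354 in a d7 male (mouse 15) and 412 in a d14 male (mouse 21), against 1.51 to 113 in the other 19 mice. T cell and B cell genes were both high there: in mouse 10 the B cell gene *Ms4a1* reached 222 and the T cell genes *Cd4* and *Cd8a* reached 101 and 80.7. The same 4 mice had the highest sums of 6 lymphatic endothelial markers, at 434, 609.9, 466.3 and 402 against at most 258 elsewhere, and mice 5, 10 and 21 were the highest of their time points in adipocyte markers (855, 1846 and 941). Over all mice *Cd3e*, *Cd4*, *Cd8a* and *Cd79a* had a median of 3 counts or fewer. The results that moved without these 4 libraries are given both ways, an alternative added after the data had been seen.

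The first question was how the genes stood 1 week after the injury. A gene was called a differentially expressed gene (DEG) when its adjusted p in edgeR's quasi-likelihood F test was at most 0.05 and its fold change was at least 1.5, with sex as a covariate in 1 fit of all 23 mice. At d7 against BL, 3 of the 10 genes fell (*Flt1*, *Eng* and *Notch4*) and none rose, where 1.31% of the 12195 genes tested were DEGs lower at d7 and 3.82% were DEGs higher. Because earlier results were known when the 10 genes were chosen, the shares here and below are a description and no test of the group. By the adjusted p alone 4 of the 10 passed, all lower, against 18.6% of all genes. DESeq2 also called 3 of the 10, and 713 genes over all in either direction. Total count scaling gave another picture, with 0 DEGs lower and 2 higher at d7 (*Tek* and *Apln*). That scaling called 3695 of the 12195 genes tested in either direction, and the median of all genes was 0.47. In pooled tissue, fewer cells of a type and less RNA per cell cannot be told apart.

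By d14, 1 of the 10 genes was above BL (*Apln*), where 0.697% of all genes were DEGs higher and 0.0902% were DEGs lower. Between d7 and d14, 2 of the 10 genes rose (*Eng* and *Aplnr*) and none fell, against backgrounds of 0.205% higher and 0.172% lower. By the adjusted p alone 4 of the 10 were higher at d14 than at d7 (*Flt1*, *Esam*, *Eng* and *Aplnr*), against 1.29% of all genes. DESeq2 called 1 of the 10 at d14 against BL (104 genes over all) and 2 of the 10 from d7 to d14 (36 genes over all). The latter were *Eng* and *Cdh5*, and its independent filtering left *Apln*, *Aplnr*, *Esam* and *Notch4* with no adjusted p in that comparison.

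**Figure D1:**
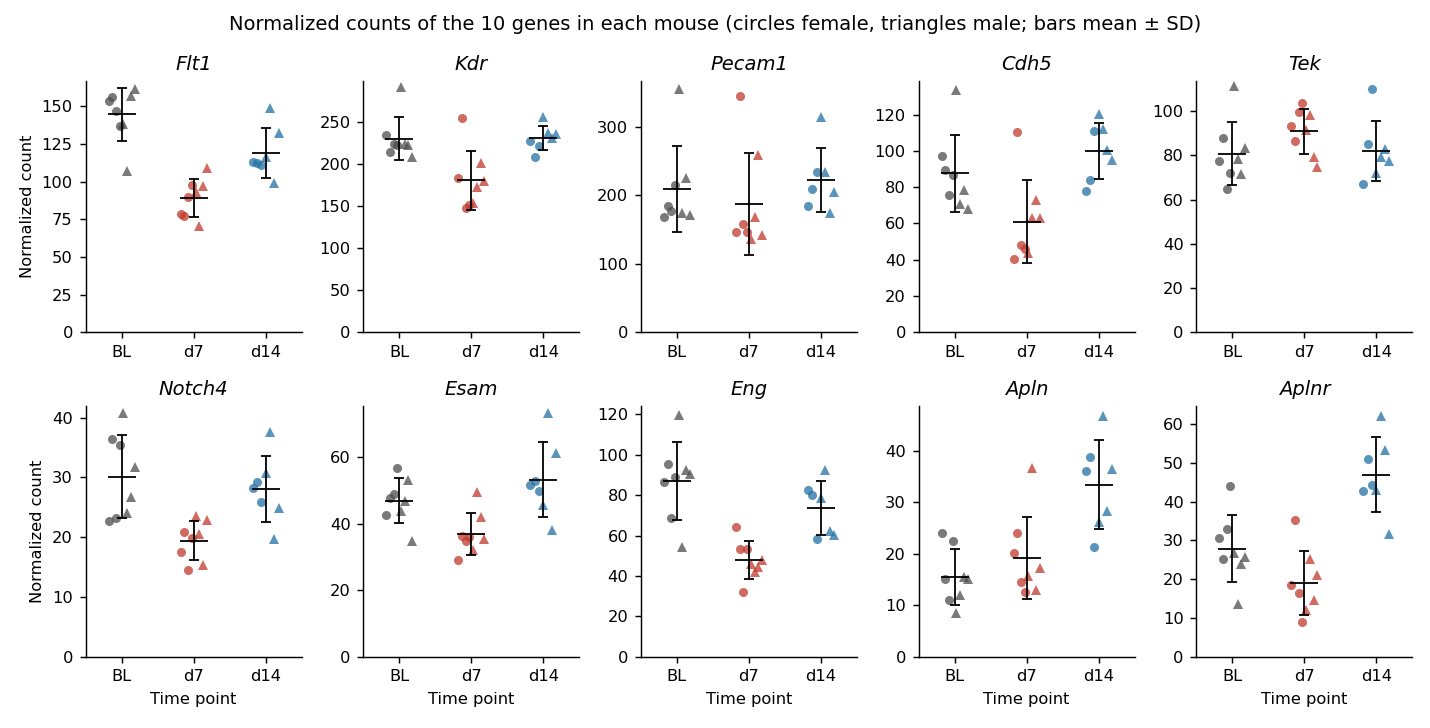
Normalized count of each of the 10 genes (vertical axis, starting at 0) in each mouse at BL, d7 and d14, with circles for females, triangles for males and bars for the mean ± SD. *Flt1*, *Eng* and *Notch4* are lowest at d7, where all 8 mice lie below the BL median, while all 7 d14 mice lie above the BL median for *Apln* and *Aplnr*.

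As a group, 7 of the 8 endothelial genes had a lower estimate at d7 than at BL, with a median log2 fold change of -0.43 against 0.02 for all genes tested, and *Tek* was the exception. At d14 against BL the estimates were 4 higher and 4 lower, with a median of 0.0088, and none was a DEG in edgeR or DESeq2 (1 had an unadjusted p under 0.05). From d7 to d14 the same 7 genes had higher estimates, with a median over the 8 of 0.47. These directions hold relative to the other genes of the library: with total count scaling the median of all genes moved to 0.47 at d7 and 0.22 at d14, and the 8 genes then split into 4 higher and 4 lower at d7 (median 0.033). In all 4 scalings 7 of the 8 lay below the median gene at d7.

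**Figure D2:**
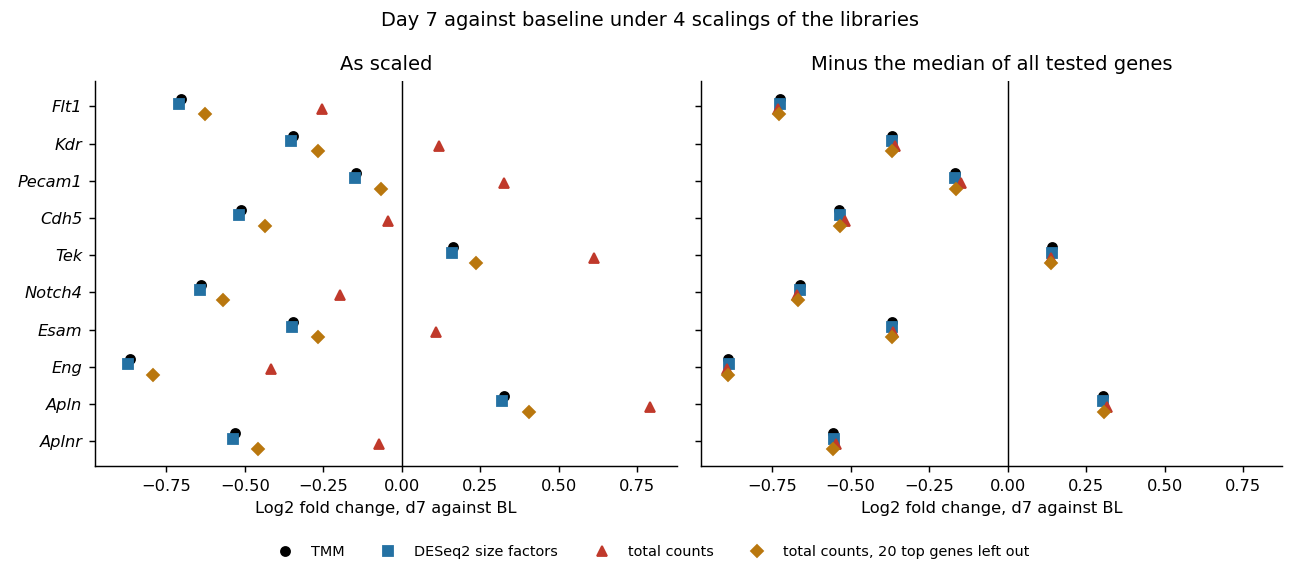
Log2 fold change of the genes at d7 against BL under 4 scalings of the libraries, with a line at 0. The values move together to the right with total count scaling, where the median of the 8 endothelial genes goes from -0.43 to 0.033 and the median of all genes from 0.02 to 0.47.

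The VEGF receptor genes lie on chromosome 5, *Flt1* at chr5:147561604-147726011 and *Kdr* at chr5:75932827-75978458, both on the minus strand (GRCm38, GENCODE vM21). *Flt1* ran from 107 over a median of 150.1 to 162 normalized counts at BL, from 70.8 over 91.6 to 109 at d7, and from 99.2 over 113 to 149 at d14. Its mean at d7 was 0.616 of that at BL, with 7 of 8 d7 mice below every BL mouse, although the groups overlapped. The log2 fold change was -0.70 (SE 0.0972, adjusted p 1.15e-05 in edgeR), and the call held without any single mouse. With total count scaling the estimate was -0.26 (adjusted p 0.0261), under the fold threshold. From d7 to d14 *Flt1* was higher by 0.42 on the log2 scale (SE 0.0998, adjusted p 0.0288), which is under the fold threshold, and 6 of 7 d14 mice lay above every d7 mouse. At d14 all 7 mice remained below the BL median, but the difference of -0.29 did not pass (adjusted p 0.162).

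*Kdr* counted 209, 223 and 291 (lowest, median, highest) at BL, 148, 176 and 254 at d7 and 208, 231 and 256 at d14. It was lower at d7 by a log2 fold change of -0.35 (SE 0.0923, adjusted p 0.00874), which passed the adjusted p but not the fold threshold. Again 7 of 8 d7 mice were below every BL mouse. At d14 against BL the log2 fold change was -0.0020 (adjusted p 0.997), and its sign turned in several alternatives. The d7 estimate of *Kdr* turned to 0.12 with total count scaling.

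*Tek*, at chr4:94739289-94874976 on the plus strand, was the endothelial gene with no lower estimate at d7. It counted 64.9, 77.9 and 111 at BL, 74.6, 92.4 and 104 at d7 and 67.2, 79.4 and 109.9 at d14. The 3 groups overlapped over most of their range, and 7 of 8 d7 mice lay above the BL median. The log2 fold change at d7 was 0.16 (SE 0.109, adjusted p 0.310) and did not pass. It was 0.61 with total count scaling (adjusted p 1.09e-04), where the median of all genes was 0.47, and *Tek* became a DEG at d7.

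*Eng*, at chr2:32646595-32682669 on the plus strand, had the largest estimate of the 8 endothelial genes at d7. Its normalized counts were 54.3, 89.9 and 119.9 at BL, 31.9, 47.0 and 64.2 at d7 and 58.2, 78.4 and 92.6 at d14. All 8 d7 mice were below the BL median and 7 were below every BL mouse. The log2 fold change was -0.87 (SE 0.142, adjusted p 1.14e-04), and this call also held without any single mouse. Scaled by total counts it was -0.42 (adjusted p 0.0248) and under the fold threshold. *Eng* rose from d7 to d14 by 0.62 (SE 0.146, adjusted p 0.0268), with all 7 d14 mice above the d7 median. That second call was lost without any 1 of 6 mice (11, 14, 15, 17, 18 or 22), with adjusted p up to 0.0856, and with total count scaling (0.38, adjusted p 0.0833). It was also lost when those totals left out the 20 most abundant genes (0.56, adjusted p 0.0670). *Eng* overlaps *Fpgs* on the opposite strand, and the strand setting of the counting is not given in the sources used here, so reads of the pair may not be separate.

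*Notch4*, at chr17:34564268-34588503 on the plus strand, had the lowest level per length of the 10 genes. It counted 22.7, 29.2 and 40.7 at BL, 14.5, 20.2 and 23.5 at d7 and 19.6, 28.2 and 37.7 at d14, from raw counts of 15 to 38. All 8 d7 mice were below the BL median. It fell at d7 by 0.64 on the log2 scale (SE 0.162, adjusted p 0.00600). Without mouse 5, a BL male, the log2 fold change was -0.56 and no longer reached the fold threshold, and the same was true without the 4 libraries high in lymphocyte markers (-0.55, adjusted p 0.0417). The call was also lost with total count scaling (-0.20, adjusted p 0.318), with that scaling less the 20 most abundant genes (-0.57, adjusted p 0.0177) and with the mapping rate as a covariate (-0.83, adjusted p 0.109). The mapping rates given by the study were lower in most BL mice than at d7 and d14. With this covariate 105 genes over all were DEGs at d7, in place of 626. From d7 to d14 the estimate was 0.52 (adjusted p 0.106), with 6 of 7 d14 mice above every d7 mouse.

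**Figure D3:**
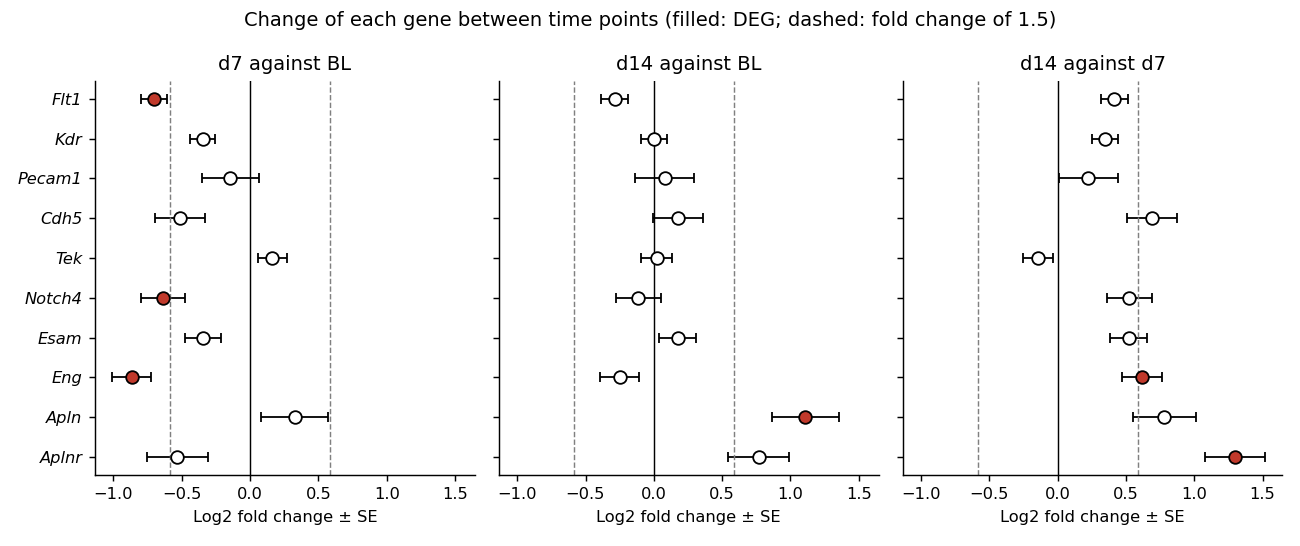
Log2 fold change ± SE of each gene for d7 against BL, d14 against BL and d14 against d7 (horizontal axes), with filled points for DEGs and dashed lines at a fold change of 1.5. *Flt1*, *Eng* and *Notch4* are filled on the left panel, *Apln* at 1.11 on the middle panel, and *Eng* and *Aplnr* at 0.62 and 1.30 on the right panel.

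Of the junction genes, *Pecam1* lies at chr11:106654217-106750628 on the minus strand, *Cdh5* at chr8:104101625-104144511 on the plus strand and *Esam* at chr9:37528078-37538319 on the plus strand. *Cdh5* counted 68.1, 82.7 and 134 at BL, 40.5, 55.8 and 111 at d7 and 77.9, 100.3 and 120.4 at d14. The d7 estimate was -0.51 (SE 0.182, adjusted p 0.0507) and the change from d7 to d14 was 0.69 (SE 0.183, adjusted p 0.0578), and neither passed, although the second was a DEG in DESeq2 (adjusted p 0.0128), with no covariate (adjusted p 0.0496), with the mapping rate as a covariate (adjusted p 0.0307), without mouse 5 (adjusted p 0.0286) and without mouse 10 (adjusted p 3.59e-04). In 6 of 8 d7 mice the level was below every BL mouse, and the 2 others were mice 10 and 15.

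The levels of *Cdh5*, *Pecam1* and *Kdr* were highest in the lymphocyte-rich libraries of each time point. Mouse 5 ranked 1 of 8 at BL for all 3 genes, mice 10 and 15 ranked 1 and 2 at d7, and mouse 21 ranked 1 at d14. Mouse 5 was also first at BL for *Tek*, *Notch4* and *Eng*, and mouse 10 was first at d7 for *Aplnr* and second for *Eng* and *Apln*. In *Flt1*, *Esam* and *Apln* mouse 5 stood at rank 6, 6 and 8 at BL. Without the 4 libraries *Cdh5* was a DEG both at d7 (-0.70, adjusted p 4.55e-04) and between d7 and d14 (0.93, adjusted p 9.84e-05). The count of DEGs among the 10 genes then went from 3 to 4 at d7 and from 2 to 4 between d7 and d14. Over all genes, 555 and 43 of the 11960 tested were DEGs in that fit, in place of 626 and 46 of 12195. Without mouse 10 alone *Cdh5* was also a DEG at d7 (-0.73, adjusted p 5.18e-04). The part of the lymphocyte, lymphatic and adipocyte transcripts in these levels was not tested.

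*Pecam1* counted 168, 181 and 354 at BL, 136, 152 and 344 at d7 and 174, 209 and 315 at d14. No comparison passed for this gene, with a log2 fold change of -0.14 at d7 (SE 0.210, adjusted p 0.673). Without the 4 libraries the d7 estimate was -0.34 (adjusted p 0.00893) and that between d7 and d14 was 0.47 (adjusted p 0.00410), both under the fold threshold. *Pecam1* is also made by platelets and some leukocytes. The summed level of 6 platelet markers ran from 20.1 to 71.7 at BL, from 19.9 to 74.6 at d7 and from 28.3 to 47.8 at d14, with *Ppbp*, *Gp9* and *Treml1* at a median of 3 counts or fewer, and their part in the level of *Pecam1* was not tested.

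**Figure D4:**
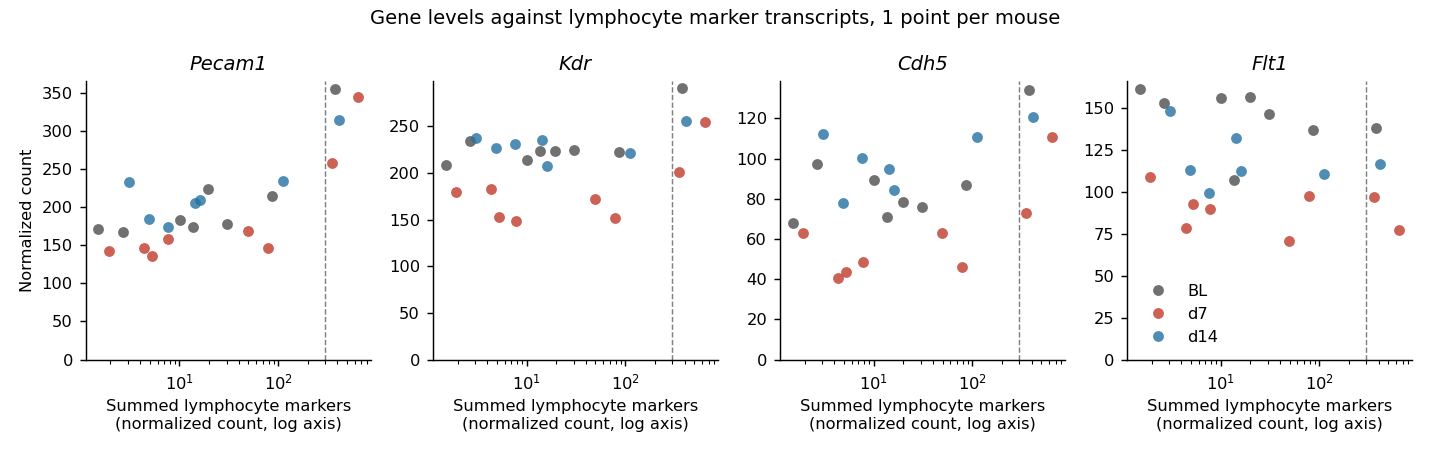
Normalized count of single genes (vertical axis) against the summed lymphocyte markers (horizontal log axis), 1 point per mouse, with a dashed line at 300. The 4 mice beyond the line, at 354 to 649, are at or near the top of their time point for *Cdh5*, *Pecam1* and *Kdr*.

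*Esam* counted 34.8, 47.3 and 56.8 at BL, 29.0, 35.7 and 49.5 at d7 and 38.2, 51.6 and 73.3 at d14. Its d7 estimate of -0.35 did not pass (SE 0.133, adjusted p 0.0700). Between d7 and d14 it was higher by 0.52 (SE 0.134, adjusted p 0.0460), just under the fold threshold, and 5 of 7 d14 mice lay above every d7 mouse. It became a DEG there without the 4 lymphocyte-rich libraries (0.59, adjusted p 0.0462), without mouse 14 (0.60, adjusted p 0.0216) and without mouse 23 (0.59, adjusted p 0.0217).

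Apelin followed another course. *Apln*, at chrX:48025146-48034853 on the minus strand, counted 8.57, 15.1 and 23.996 at BL, 12.6, 16.4 and 36.6 at d7 and 21.2, 36.0 and 46.8 at d14, from raw counts of 8 to 48. At d7 its log2 fold change was 0.33 (SE 0.244, adjusted p 0.372) and did not pass. Total count scaling gave 0.79 (adjusted p 0.00881), a DEG, where the median of all genes was 0.47. At d14 it rose by 1.11 (SE 0.246, adjusted p 0.0156), a ratio of means of 2.16, with 7 of 7 d14 mice above the BL median and 6 above every BL mouse. The call held without any single mouse (1.0 to 1.21, adjusted p 0.00339 to 0.0405) and without the 4 lymphocyte-rich libraries (1.02, adjusted p 0.0208). It was lost with the mapping rate as a further covariate (1.36, adjusted p 0.203), a fit that called 5 genes over all at d14 in place of 96. In the mapping statistics of the study, all 7 d14 libraries had a lower share of reads in 5′ untranslated exons than any BL or d7 library. Their share in coding exons was higher than in any BL or d7 library. The part of these differences in the calls that involve d14 was not tested. *Apln* was not tested under a filter of at least 10 counts in every mouse. From d7 to d14 the estimate was 0.78 (SE 0.231, adjusted p 0.0843), which passed only without mouse 14 among the single mice left out (1.02, adjusted p 0.0150).

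The receptor gene *Aplnr*, at chr2:85136225-85139923 on the plus strand, counted 13.6, 26.2 and 44.0 at BL, 9.03, 17.5 and 35.1 at d7 and 31.7, 44.3 and 62.1 at d14. Its d7 estimate was lower (-0.53, SE 0.224, adjusted p 0.0972) and its d14 estimate higher (0.77, SE 0.222, adjusted p 0.0779), and neither passed. The first was a DEG without mouse 6 (-0.63, adjusted p 0.0460), without mouse 10 (-0.73, adjusted p 0.0188) and without the 4 lymphocyte-rich libraries (-0.73, adjusted p 0.0379). From d7 to d14 *Aplnr* rose by 1.30 (SE 0.220, adjusted p 0.00139 in edgeR, none in DESeq2), with 6 of 7 d14 mice above every d7 mouse and a ratio of means of 2.47. This call held without any single mouse (1.20 to 1.48). At d14 against BL all 7 mice were above the BL median, and *Aplnr* became a DEG there with total count scaling (0.97, adjusted p 0.00823) or with only the mice compared in the fit (0.76, adjusted p 0.0205), and without mouse 4, 10 or 12 (0.87, 0.75 and 0.78, adjusted p 0.0429, 0.0451 and 0.0423).

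Ratios of genes within a mouse do not depend on the scaling of the libraries. The pairs below were chosen after their values had been seen, so the ratios are given as a description with no test. The ratio of *Apln* to *Aplnr* counts had a median of 0.594 at BL, 0.992 at d7 and 0.754 at d14, and its mean on the log2 scale was 0.87 higher at d7 than at BL and lower again at d14 (a difference of -0.54 from d7). The ratio of *Flt1* to *Tek* had medians of 1.93, 0.921 and 1.62, with log2 differences of -0.87 from BL to d7 and 0.57 from d7 to d14. In 7 of 8 d7 mice it was below every BL mouse. *Tek* against *Kdr* had medians of 0.340, 0.540 and 0.335, with log2 differences of 0.54 and -0.53. The ratio of *Flt1* to *Kdr* had medians of 0.655, 0.545 and 0.50.

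In 8 lists of pathway genes chosen by name, DEGs were found at d7 in 3, with 1 DEG in each of these. Over all genes tested 5.13% were DEGs at d7 in either direction. Over all 8 lists 0 genes were DEGs at d14 against BL or from d7 to d14 in edgeR or DESeq2, with 0 to 1 and 1 to 3 genes a list at an unadjusted p under 0.05. In the second comparison DESeq2 gave no adjusted p for 1 to 5 genes of each list. With total count scaling 7 of the 8 lists held 1 to 3 DEGs at d7, where 3695 of all 12195 genes tested were DEGs. Of 8 further VEGF ligands and receptors, 0 were DEGs at d7 in edgeR or DESeq2 (4 had an unadjusted p under 0.05), with a median log2 fold change of 0.03. *Vegfa*, the main ligand of both receptors, had means of 514 ± 54.9 (SD) at BL, 437 ± 65.6 at d7 and 516 ± 56.8 at d14, and was lower at d7 by a log2 fold change of -0.23 (adjusted p 0.0489). *Nrp1*, a co-receptor, was at 506 ± 46.7, 554 ± 128 and 503 ± 62.9.

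In the angiopoietin and Tie system 1 of 5 tested genes was a DEG. *Angpt1*, the ligand of Tie2, rose at d7 by 0.62 (SE 0.150, adjusted p 0.00567), from 159 ± 34.3 to 242 ± 45.4, and lost the call without mouse 5, 14 or 16 (lowest estimate 0.53). *Ptprb*, the phosphatase that acts on Tie2, was singled out after its values had been seen: it went from 370.0 ± 35.6 to 255 ± 24.8 and back to 356 ± 36.1, with a log2 fold change of -0.53 at d7 (adjusted p 8.05e-06) and 0.48 from d7 to d14 (adjusted p 4.23e-04), both under the fold threshold.

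For the other pathways, 1 of 10 tested genes of the endoglin pathway was a DEG at d7, namely *Tgfbr2*, which encodes a TGF-β receptor and rose by 0.74 (SE 0.240, adjusted p 0.0373), a call lost when no filter was set and without any 1 of 10 mice (adjusted p up to 0.0949). Of 8 tested Notch genes 0 were DEGs at d7 in edgeR or DESeq2, and 0 had an unadjusted p under 0.05, with *Notch1* at 334 ± 91.8, 383 ± 53.5 and 335 ± 56.3 and *Jag1* at 252 ± 20.8, 272 ± 27.5 and 239 ± 23.03. None of 11 further junction genes was a DEG at d7 in either tool (4 had an unadjusted p under 0.05), with *Ctnnb1*, which encodes the β-catenin bound by VE-cadherin, at 2183 ± 130 at BL and 2185 ± 152 at d7, and *Afdn*, listed as *Mllt4*, at 609 ± 50.0 and 598 ± 81.7. Among 4 further genes of apelin signalling 0 were DEGs in either tool (1 had an unadjusted p under 0.05 at d7): *Gnaq* was lower at d7 by a log2 fold change of -0.25 (adjusted p 0.00788), and *Ece1* was at 274 ± 22.6 and 267 ± 23.1.

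Of 7 tested tip cell genes, which mark sprouting endothelium, 0 were DEGs in either tool at d7 or d14 (1 had an unadjusted p under 0.05 in each). *Nid2* was at 64.9 ± 16.4, 71.4 ± 11.8 and 86.0 ± 12.2, and *Pgf* at 57.0 ± 22.3, 48.5 ± 15.6 and 51.9 ± 16.7. Of 10 tested hypoxia target genes 1 rose at d7, *Car9*, a carbonic anhydrase, by 0.91 (SE 0.278, adjusted p 0.0213), from 14.3 ± 7.02 to 27.2 ± 6.32; it was not tested under the filter of 10 counts.

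In 20 other endothelial markers the estimates were 14 lower and 6 higher at d7, with a median of -0.24. Among them *Robo4* (-0.98, adjusted p 0.00590) and *Myct1* (-0.66, adjusted p 0.0499) fell at d7, and 0 were DEGs higher. By the adjusted p alone 4 of the 20 were lower and 1 was higher, where 18.6% of all genes passed. *Robo4* kept its call without any single mouse and *Myct1* lost it without any 1 of 15, so the count of lower DEGs ran from 1 to 3, the highest without mouse 10. The count of higher DEGs was 1 without mouse 4, 5 or 11, and 1 when libraries were scaled by totals less the 20 most abundant genes. *Emcn*, which encodes endomucin, rose from d7 to d14 (0.64, adjusted p 0.00487), a call lost without mouse 23. DESeq2 called 1 of the 20 at d7 and 0 from d7 to d14, where 12 had no adjusted p. At d14 against BL 0 were DEGs in either tool (2 had an unadjusted p under 0.05). Total count scaling turned this, with 15 of the 20 higher at d7 and a median of 0.22, against 0.47 for all genes. The summed level of the 20 markers ran from 1101 to 1677 at BL, from 885 to 1601 at d7 and from 1215 to 1530 at d14.

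Markers of other cell types differed between the same mice. Acinar markers fell at d7 in 7 of 10 (log2 fold change of *Sycn* -1.15, *Prss2* -0.94, *Pnlip* -0.88 and *Cpa1* -0.87), and *Sycn* rose from d7 to d14 (0.87). Their sum ran from 3371010 to 4973030 at BL, from 1974010 to 3024980 at d7 and from 3050890 to 3691830 at d14. Fibroblast markers rose at d7 in 7 of 7 (*Lum* 1.41, *Col3a1* 1.10, *Dpt* 1.03 and *Pdgfra* 0.88) and in 3 of 7 at d14 (*Lum* 0.90, *Dpt* 0.72 and *Pdgfra* 0.63, the last 2 of which lost the call without mouse 19), with sums of 2830 to 5703 at BL, 5453 to 10355 at d7 and 4582 to 6536 at d14. The d7 rise covered 7 of 8 macrophage markers (*Lyz2* 1.12, *C1qa* 1.05, *C1qc* 1.05 and *C1qb* 0.91), whose sum was 460 to 1772, 1111 to 2642 and 766 to 1500.

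Islet markers rose at d7 in 5 of 8 (*Iapp* 1.11, *Ins1* 1.04, *Ins2* 0.97 and *Chga* 0.86), duct markers in 2 of 6 (*Krt7* 0.74 and *Spp1* 0.72) and erythroid markers in 4 of 5 (*Hbb-bt* 1.87, *Alas2* 1.67, and *Hba-a1* and *Hba-a2*, near-identical copies with the same value, 1.72). A single library stood apart here: mouse 15 had a sum of 5847 against 212 to 1172 in the other d7 mice, and without it *Hba-a1* was at 0.87 (adjusted p 0.0295) and *Hbb-bt* (0.94, adjusted p 0.106) and *Alas2* (0.80, adjusted p 0.104) lost their calls. *Hbb-bt*, *Alas2*, *Chga*, *Krt7*, *Lyz2* and *C1qb* lost theirs without any 1 of 17, 15, 16, 14, 8 and 7 mice, and *Hba-a1* and *Hba-a2* without mouse 6, 7 or 8. No adipocyte marker of 6 tested and no lymphocyte marker of 3 tested was a DEG at d7, with 0 at an unadjusted p under 0.05. In the 2 named here the SDs were above or near the means: *Cfd* was at 142 ± 131, 229 ± 307 and 93.2 ± 121, and *Ms4a1* at 23.3 ± 37.2, 51.8 ± 80.6 and 30.5 ± 57.1. The platelet gene *Pf4* was at 17.7 ± 6.40, 20.7 ± 7.94 and 20.6 ± 9.03.

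Among mural and vessel subtypes, the pericyte gene *Notch3* fell at d7 (-0.79, adjusted p 0.0141) and the lymphatic gene *Prox1* rose (0.76, adjusted p 0.00440), each as 1 DEG of its list of 7 and 6. The pericyte sum was 290 to 496 at BL, 228 to 454 at d7 and 345 to 490 at d14. *Efnb2*, an arterial gene, was lower at d7 by less than 1.5-fold (-0.54, adjusted p 0.00531), as was the venous gene *Ephb4* (-0.32, adjusted p 0.00442), while *Sox17* was at 8.99 ± 2.57 at BL and 7.05 ± 3.97 at d7 and *Nr2f2* at 81.4 ± 12.5 and 87.7 ± 10.6. The smooth muscle genes *Myh11* (81.3 ± 47.3, 128 ± 129 and 102 ± 90.1) and *Acta2* (38.1 ± 27.7, 85.8 ± 91.9 and 56.7 ± 68.8) varied widely and were not DEGs. The part of these cell types in the levels of the 10 genes was not tested.

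The sexes were compared because the study followed both. None of the 10 genes had a change at d7 or at d14 that differed between females and males by the adjusted p in edgeR (smallest 0.945 at d7), 0 had an unadjusted p under 0.05, and DESeq2 gave 0 too. Over all genes 0.00773% passed at d7 and 0% at d14. None differed between males and females over all time points (smallest adjusted p 0.826, 0 at an unadjusted p under 0.05), where 0.23% of all genes were DEGs. Females alone had 2 of the 10 as DEGs at d7, *Flt1* (-0.80, adjusted p 0.00152) and *Eng* (-0.74, adjusted p 0.0356), against 1.92% of all genes. Males alone had the same 2 genes, *Flt1* (-0.62, adjusted p 0.00723) and *Eng* (-1.002, adjusted p 0.00335), against 4.15%. At d14 against BL 0 of the 10 passed in females or in males (2 in each had an unadjusted p under 0.05), where 0.193% and 0.155% of all genes were DEGs, and the estimate of *Apln* was 0.81 in females (adjusted p 0.448) and 1.43 in males (adjusted p 0.125), with a difference of 0.62 between them that did not pass. Between d7 and d14 *Aplnr* was the 1 DEG in males (1.37, adjusted p 0.0311), against 0.503% of all genes, and 0 of the 10 were DEGs in females (*Aplnr* 1.19, adjusted p 0.227, 6 at an unadjusted p under 0.05), against 0.0232%; the difference between the sexes from d7 to d14 was not tested.

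Between mice of 1 time point, 4 of the 45 pairs of genes correlated with an adjusted permutation p of at most 0.05 for Pearson's r, over 23 mice and 61 relations tested. *Kdr* and *Cdh5* had r = 0.84 and rho = 0.61 (permutation p 2.1e-04 and 0.00819, adjusted 0.00317 and 0.0833), and r was 0.60 without mice 5 and 10. *Pecam1* and *Cdh5* had r = 0.84 and rho = 0.69 (permutation p 7e-05 and 0.00111, adjusted 0.00142 and 0.0226), with r = 0.62 without the same mice. *Kdr* and *Pecam1* had r = 0.82 but rho = 0.38 (permutation p 2.6e-04 and 0.111, adjusted 0.00317 and 0.424), and r = 0.54 without them, so this relation rests in large part on those mice.

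*Notch4* and *Eng* had r = 0.65 and rho = 0.58 (permutation p 0.00123 and 0.00571, adjusted 0.0125 and 0.0833). *Apln* and *Aplnr* did not pass, at r = 0.55 and rho = 0.50 (permutation p 0.0123 and 0.0229, adjusted 0.0832 and 0.175). *Flt1*, *Tek*, *Esam*, *Apln* and *Aplnr* each passed with none of the other 9 genes. The median r of the 45 pairs was 0.19. With total count scaling 9 pairs passed. The values of a pair share libraries and scaling.

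**Figure D5:**
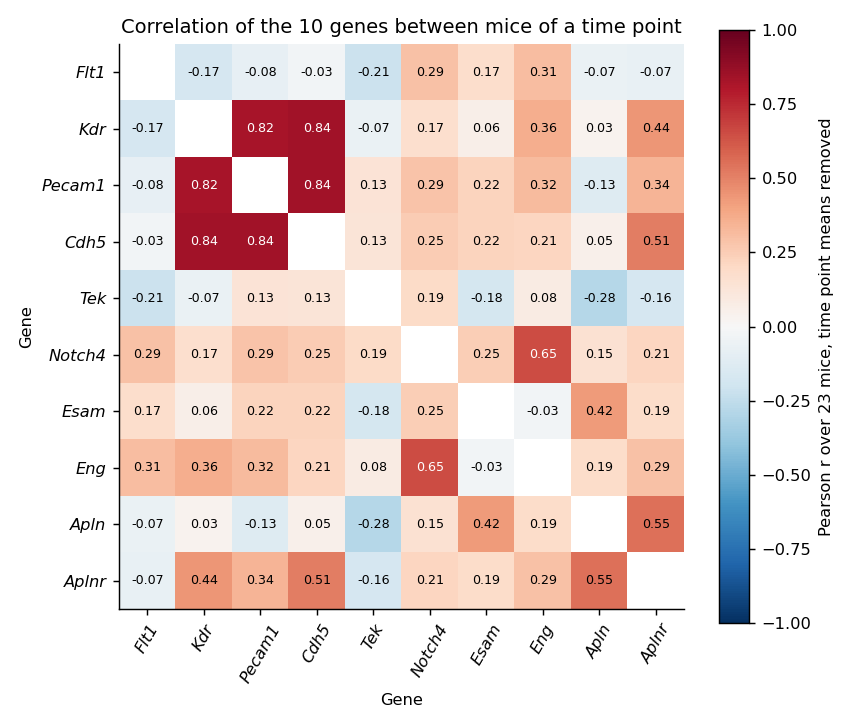
Pearson r of log2 CPM between each pair of the 10 genes over 23 mice after the mean of each time point was removed, as a colour scale. *Kdr*, *Pecam1* and *Cdh5* form a block with r from 0.82 to 0.84. The row of *Flt1* runs from -0.21 to 0.31, that of *Tek* from -0.28 to 0.19 and that of *Esam* from -0.18 to 0.42.

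The level of *Cdh5* was set against 8 lists: acinar, islet, duct, adipocyte, fibroblast, pericyte and macrophage markers and the hypoxia targets. The other endothelial, the lymphatic and the lymphocyte markers were not among them. Of the 8, the pericyte markers gave the highest r, with r = 0.83 and rho = 0.82 (permutation p 1e-05, the smallest that 100000 permutations can give, adjusted p 6.1e-04). Without mice 5 and 10, r was 0.71. *Cdh5* ran against the duct markers, with r = -0.78 and rho = -0.71 (permutation adjusted p 0.00122 for r), and r = -0.64 without the same mice. Adipocyte and macrophage markers passed for r as well (0.66 and 0.62, permutation adjusted p 0.0155 and 0.0165) but fell to 0.48 and 0.42 without them. For *Apln* none of the 8 lists passed the adjusted permutation p for r, the hypoxia targets giving -0.12 (permutation adjusted p 0.831).

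As a description over all tested genes and the 23 mice, the genes most like *Cdh5* were *Egfl7* (r = 0.91), *Dock11* (0.87), *Plekho1* (0.87), *Trib2* (0.86) and *Cldn5* (0.85), with *Kdr* at rank 9 and *Pecam1* at rank 10. Nearest to *Apln* were *Lsm5* (0.79), *Ikbkg* (0.66), *Rftn2* (0.66), *Ckap4* (0.64) and *Pelo* (0.63), and *Aplnr* stood at rank 39. Nearest to *Aplnr* were *Soga1* (0.77), *Hist1h3a* (0.75), *Med15* (0.73), *Atad2* (0.72) and *Smarcc1* (0.71), with *Apln* at rank 163.

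Divided by exon length in kb, the order of the levels at BL was *Pecam1* (33.5 ± 10.1 normalized counts per kb, SD, n = 8), *Kdr* (25.5 ± 2.86), *Eng* (21.5 ± 4.78), *Cdh5* (20.8 ± 5.02), *Tek* (17.2 ± 3.03), *Esam* (16.4 ± 2.35), *Flt1* (10.7 ± 1.30), *Aplnr* (7.53 ± 2.35), *Apln* (4.92 ± 1.70) and *Notch4* (3.74 ± 0.856). *Eng* was above *Cdh5* in 4 of 8 mice and *Tek* above *Esam* in 5 of 8, so these neighbours did not differ beyond their spread. At d7 *Tek* (19.3 ± 2.15) and *Kdr* (20.0 ± 3.88) were neighbours that did not differ beyond their spread, with *Kdr* above *Tek* in 4 of 8 mice. At d14 both *Aplnr* (12.7 ± 2.62) and *Apln* (10.6 ± 2.75) stood above *Flt1* (8.81 ± 1.21), and *Apln* exceeded *Flt1* in 5 of 7 mice. The lengths are unions of exons in GENCODE vM21, not the annotation used for the counting, which is not given in the sources used here.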

How the data were processed

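Gene counts were analysed from 23 mice (8 BL, 8 d7 and 7 d14), grouped by the labels, with 1 library per mouse; mouse 20 is not analysed here. Per the labels and the methods of the study, the authors depleted total RNA of ribosomal RNA, sequenced paired reads, trimmed them, aligned them to mm10 with STAR 2.5.2a and counted uniquely mapped fragments with featureCounts; the deposited values are these counts per gene symbol. The strand setting and the annotation release are not given in the sources used here.

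The quasi-likelihood F test of edgeR 4.0.16, with limma 3.58.1 under R 4.3.3, was run on TMM-scaled counts with robust estimation. A single model held all mice and adjusted for sex, over the 12195 genes that filterByExpr kept. Sex by time was tested in a fit of 6 groups of sex and time point (12933 genes). P-values are two-sided and adjusted by Benjamini-Hochberg over the genes tested. The SE was derived from the F statistic and the log2 fold change, and so restates the test. Log2 CPM values have a prior count of 2. Correlations used 100000 permutations within time points, and log2 ratios a pseudocount of 0.5. Totals per mouse and the number of mice limit the precision, and a count of 3 was taken as the smallest detectable. Tables and figures were made in Python 3.11.15 (scipy 1.17.1, pandas 2.3.3, matplotlib 3.10.9, numpy 2.4.6).

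Alternatives were DESeq2 1.42.0 (Wald test, no shrinkage), its size factors in edgeR, total count scaling with and without the 20 most abundant genes, a filter of 1 count in any mouse or 10 counts in every mouse, leaving sex out, adding the library mapping rate given by the study, fitting the compared groups alone, no fold threshold, and leaving out each mouse; the 4 libraries rich in lymphocyte markers were left out as an alternative added after the data had been seen. The tests were tested on simulated data. All 10 genes are named. Of each list, DEGs were named, at most 4 per comparison by absolute log2 fold change, or otherwise the 2 genes of highest mean, and for likeness the 5 genes of highest r. A gene that this rule would name is not reported here. The 10 genes and the lists were chosen with earlier results of these data known.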

Additional observations from a re-analysis of the deposited data

Results flagged for a closer look

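Of 30 sets of 7 or 8 mice (10 genes at 3 time points), 3 held a mouse whose gap to its nearest neighbour exceeded Dixon's 95% critical value, where chance gives about 1 in 20. All 3 were at BL. *Flt1* was lowest in mouse 6, a BL mouse with 107 normalized counts against a BL median of 150.1. *Kdr* was highest in mouse 5, a BL male, with 291 against a median of 223. *Pecam1* was highest in the same mouse 5, with 354 against a median of 181, and this mouse is 1 of the 4 with high lymphocyte markers. The part of those transcripts in the levels of *Kdr* and *Pecam1* was not tested.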

How the results depend on the processing

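The 10 genes were recomputed under each alternative, except *Apln* and *Aplnr* under the filter of 10 counts in every mouse, which removes them. No paired analysis was possible because the mouse numbers are unique and the groups share no replicate number. The count of DEGs among the 10 genes was 3 at d7 against BL and ranged from 2 to 5 over the fits without 1 mouse, the highest without mouse 10. Total count scaling gave 2, both higher in place of 3 lower, and called 3695 of 12195 genes over all. For d14 against BL the count among the 10 was 1 and ranged from 1 to 2, with 2 under total count scaling and with only the mice compared. It was 0 with the filter of 10 counts in every mouse and 0 with the mapping rate as a covariate, a fit that called 5 genes over all. For d14 against d7 it was 2 and ranged from 1 to 3, with 1 when libraries were scaled by total counts, 1 when the 20 most abundant genes were left out of those totals, 1 under the filter of 10 counts, 4 without the lymphocyte-rich libraries and 4 with no fold threshold. The interaction count was 0 without any mouse (0 to 0), and the correlated pairs went from 4 to 9 under total count scaling.

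Some estimates changed sign. Under total count scaling the log2 fold changes were 0.12 for *Kdr*, 0.33 for *Pecam1* and 0.11 for *Esam* at d7, 0.21 for *Kdr* and 0.089 for *Notch4* at d14, and -0.040 for *Pecam1* from d7 to d14. With the mapping rate as a covariate the d14 values were -0.38 for *Pecam1*, -0.13 for *Cdh5* and -0.073 for *Tek*. *Kdr* at d14 (-0.0020) became 0.013 when totals left out the 20 most abundant genes, 0.0078 without the filter, 0.0047 with 10 counts in every mouse, 0.0018 with no covariate and 0.021 without the lymphocyte-rich libraries. With each mouse left out it ranged from -0.029 to 0.060, while *Pecam1* ranged from -0.36 to 0.0084 at d7 and from -0.019 to 0.25 at d14, and *Tek* from -0.073 to 0.12 at d14. Among all recomputed values, 27 changed sign. *Kdr* at d7 passed the fold threshold with the mapping rate as a covariate (-0.67, adjusted p 0.0107 in edgeR). The cause of these changes was not tested. Counts under 50 for *Apln*, *Notch4* and, in most mice, *Aplnr* limit what can be seen.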
